A study of Mus musculus with 30 samples.

Results

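The livers described here came from male C57Bl/6NCr mice of cohort 2, killed aged 17 weeks when they had eaten a high-fat diet (HFD) for 8 weeks, and the comparison was between offspring of undernourished dams (UN in utero) and offspring of normally nourished dams (NN). Each group gave 4 livers, NN 7 to NN 10 and UN 11 to UN 14 by the numbers in the sample labels, so that 8 of the 30 arrays of the series were compared. All 8 animals ate regular chow until 9 weeks and HFD from then on, and neither group of this age received vehicle or tauroursodeoxycholic acid. The UN dams had received 40% fewer calories in late pregnancy, and NN dams ate freely. Pups were chosen at random for the arrays, 1 array a pup, and the labels do not say which pups shared a dam, so that p-values measure the spread between these animals, litter mates perhaps among them. All values are log2 signals per probe set of an Affymetrix mouse gene array, so that a difference of 1 is a linear fold of 2. A gene was called at the thresholds that the study used, namely a linear fold of 2 or more in either direction together with a p under 0.05 without adjustment, the p being taken here from limma. Each result was computed with all 8 arrays and again with 7, without UN 14, an array with a compressed range of signals, and a gene that was called in the same direction both times is said to have held.

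The liver stores surplus fatty acids as triglyceride in lipid droplets, whose size is set by coat proteins and by CIDE proteins that fuse droplets. In rodents many liver genes for steroid, drug and anion metabolism also differ between males and females, since the male pattern of growth hormone pulses sets them through STAT5b. Hepatocytes secrete acute-phase proteins under cytokines from macrophages. Genes of all these kinds were among those that held.

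Of 25341 probe sets with a gene name, 25 held, 9 higher (0.0355% of those tested) and 16 lower (0.0631%) in UN. By the naming rule they gave 19 genes, 9 higher and 10 lower. Higher in UN were the lipid droplet genes Cidea and Cidec, the acute-phase genes Orm3 and Lcn2, the cytochrome P450 gene Cyp2b13, and Themis, Ly6d, Ifi27l2b and Rgs16. Lower were Hsd3b5, Slco1a1, Acmsd, Cyp17a1, Clec2h, Hamp2, Cdh1, Cyp2c40, Tcf24 and Slc22a28. Over the 19, the unadjusted p ran from 2.35e-05 for Themis to 0.0432 for Cyp2c40 without UN 14. No probe set passed a Benjamini-Hochberg adjusted p of 0.05 in limma (0 of 25341, 0%) with all 8 arrays or without UN 14. At an unadjusted p under 0.05 there were 760 and 1533, and the smallest adjusted p was 0.721 and 0.249. Of the 8 arrays, UN 14 and to a smaller degree UN 13 stood apart from the others, which is described before the genes.

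The proximal promoters are shown for 4 of the genes that held, 2 acute-phase genes that were higher and 2 male-biased genes that were lower. RefSeq promoter windows (GRCm38.p6, 250 bases before to 50 after the start site) were matched by symbol for 13 of the 19 genes, in 15 windows, and those of the other genes were not used. Capitals mark the letters TTNNGNAA, read on both strands, a loose form of the element bound by C/EBP proteins, which are liver transcription factors. The sequences run 5′ to 3′ on the strand of the gene.
Orm3, chr4:63355908-63356207, plus strand: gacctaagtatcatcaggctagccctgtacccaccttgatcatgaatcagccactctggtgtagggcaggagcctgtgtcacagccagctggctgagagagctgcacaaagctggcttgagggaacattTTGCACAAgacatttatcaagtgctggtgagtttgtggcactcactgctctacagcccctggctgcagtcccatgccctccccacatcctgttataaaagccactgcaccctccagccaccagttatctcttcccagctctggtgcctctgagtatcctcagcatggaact
Lcn2, chr2:32387690-32387989, minus strand: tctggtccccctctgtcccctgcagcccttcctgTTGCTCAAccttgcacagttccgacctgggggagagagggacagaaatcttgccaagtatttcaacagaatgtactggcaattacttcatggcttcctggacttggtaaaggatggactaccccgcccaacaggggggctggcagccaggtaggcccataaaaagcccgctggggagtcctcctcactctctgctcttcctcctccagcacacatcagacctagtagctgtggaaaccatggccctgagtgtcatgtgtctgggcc
Hsd3b5, chr3:98645485-98645784, minus strand: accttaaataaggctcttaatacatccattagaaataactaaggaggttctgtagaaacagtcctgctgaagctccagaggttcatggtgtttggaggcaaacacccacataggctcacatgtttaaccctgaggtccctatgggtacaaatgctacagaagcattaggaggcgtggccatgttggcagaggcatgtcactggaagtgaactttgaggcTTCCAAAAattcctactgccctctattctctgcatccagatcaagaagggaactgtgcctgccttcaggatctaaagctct
Slco1a1, chr6:141946913-141947212, minus strand: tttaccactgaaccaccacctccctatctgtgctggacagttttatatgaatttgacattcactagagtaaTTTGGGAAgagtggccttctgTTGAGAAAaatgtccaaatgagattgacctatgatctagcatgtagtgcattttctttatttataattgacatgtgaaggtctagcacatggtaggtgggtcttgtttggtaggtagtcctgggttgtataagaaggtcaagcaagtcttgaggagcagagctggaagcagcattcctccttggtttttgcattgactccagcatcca
The letters TTNNGNAA were found in 9 of the 13 genes and in 40.7% of all 32851 promoter windows of the same length. All 4 promoters shown have them, and those of Themis, Rgs16, Clec2h and Hamp2 had none. The STAT letters TTCNNNGAA, a palindrome, were found in the window of 1 of the 13, Hamp2, and in 8.3% of all windows. The letters AGGTCA, a site for nuclear receptors, were found in 3 of the 13 (Cyp2b13, Slco1a1 and Acmsd) and in 16.3% of all windows. A gene was counted if any of its windows matched, while the shares are over single windows, so that these counts and shares are unlike measures. Matches of different motifs may share bases, and a match of letters was not a measurement of binding.

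UN 14 held far less signal in the genes that the liver expresses most. The SD over all probe sets was 1.48 in UN 14 and 1.90 in UN 13, against 1.91 to 2.01 in the other 28 arrays of the series, and the median correlation with the other arrays was 0.837, 0.958 and 0.977 to 0.985. When named probe sets were sorted by brightness into 5 bins of equal size, UN 14 deviated from the NN mean by a median of 0.16 in the dimmest bin and by -0.78 and -1.85 in the brightest 2 bins. UN 13 went the same way, with 0.085 in the dimmest bin and -0.22 in the brightest, while the medians of UN 11 and UN 12 lay between -0.014 and 0.05 in the 5 bins. The 13 measured hepatocyte markers, such as Alb and Apoa1, summed to between 33430 and 34144 linear signal units in NN, to between 31291 and 32499 in UN 11 to UN 13, and to 6200 in UN 14. Over all 25341 probe sets the median log2 difference between UN and NN was -0.054 with all 8 arrays and 0.0067 without UN 14. Identical arrays were not found (0 pairs).

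**Figure D1:**
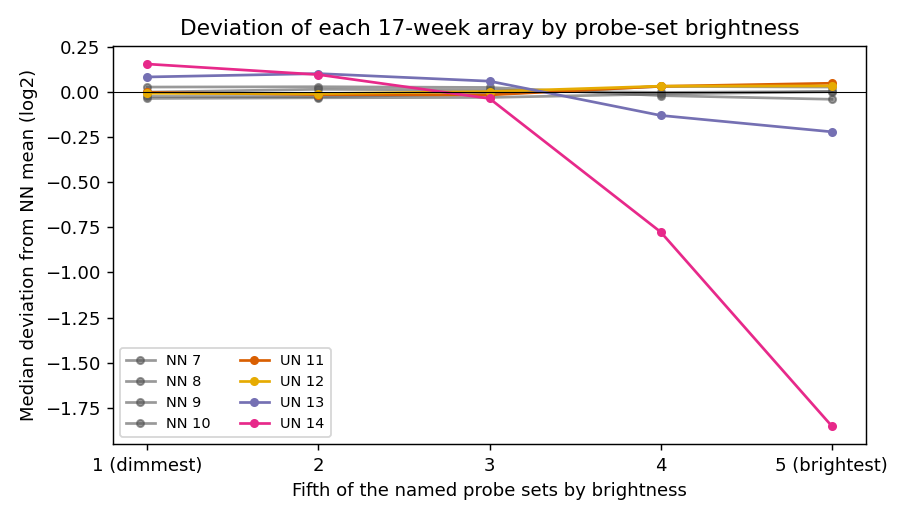
Median deviation of each 17-week array from the NN mean (log2, vertical axis) in 5 bins of the 25341 named probe sets from dimmest to brightest (horizontal axis), with 1 line an array. UN 14 falls to -1.85 in the brightest bin and UN 13 to -0.22, and the other 6 arrays stay near 0.

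With all 8 arrays 67 probe sets were called, 20 higher (0.0789%) and 47 lower (0.185%), and 32 of the 47 lower ones were in the brightest bin. Repeating quantile normalization over the 8 arrays changed this split to 28 higher and 35 lower. Without UN 14, 31 were called, 15 higher (0.0592%) and 16 lower (0.0631%). The 42 called only with UN 14 comprised 11 higher and 31 lower, and 29 of the 31 lower ones were in the brightest 2 bins. Each of the 42 kept its sign without UN 14 but had a fold under 2. The lower ones with the largest differences were liver genes: Ces3b (a carboxylesterase), C8b (a chain of the complement membrane attack complex), Cyp2c54 (a cytochrome P450), Mup21 (a major urinary protein) and Urad (an enzyme of urate breakdown). C8b was 10.33, 10.28, 10.004 and 9.85 in NN 7 to NN 10 and 9.40, 9.25, 9.33 and 6.20 in UN 11 to UN 14, a difference of -1.57 ± 0.67 (SE) with and -0.79 ± 0.14 without UN 14. All 4 UN livers were below the NN livers for C8b, by less than 1 in UN 11 to UN 13 on average and by far more in UN 14. The differences of Ces3b, Cyp2c54, Mup21 and Urad went from between -1.60 and -1.50 with UN 14 to between -0.94 and -0.81 without it. Of the 11 higher ones 7 were in the dimmest 2 bins. By the naming rule, which leaves out small RNAs and olfactory and vomeronasal receptors, Prpmp5, Klk1b16, Usp17la, Sprr1a and Kifc1 were named among them. Sprr1a, a cornified envelope gene, was 3.19, 3.80, 4.32 and 3.96 in NN and 3.93, 5.43, 4.65 and 5.63 in UN, and its difference was 1.09 with and 0.85 without UN 14.

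**Figure D2:**
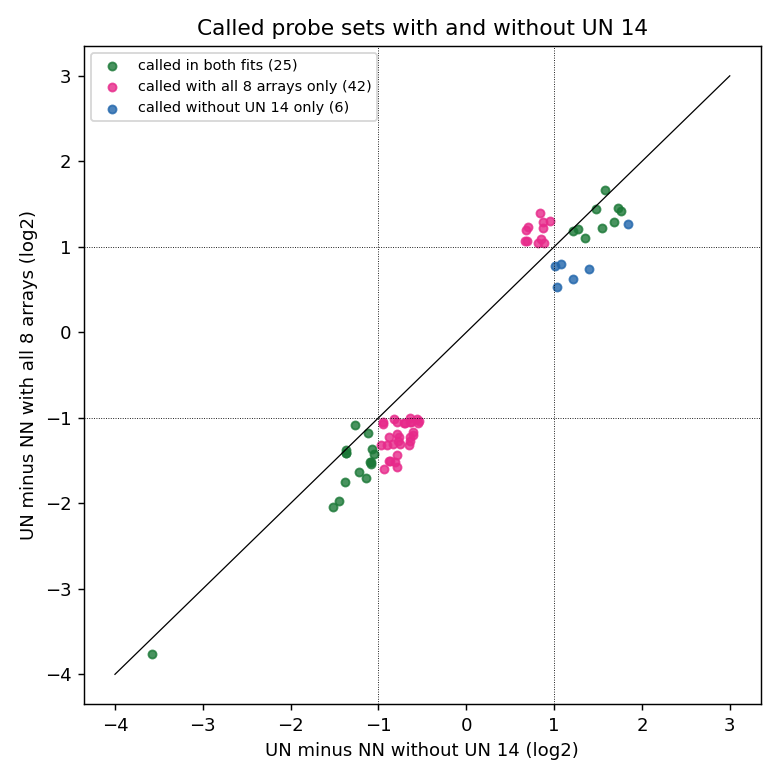
UN minus NN (log2) with all 8 arrays (vertical axis) against that without UN 14 (horizontal axis), with 1 point a called probe set and dotted lines at a fold of 2. The 25 that held lie beyond the lines both ways, the 42 called only with UN 14 lie inside them without it, and 6 were called only without it.

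The lipid droplet genes Cidea and Cidec were higher in UN. Their proteins enlarge lipid droplets by moving triglyceride from smaller to larger droplets. Cidea (probe set 17351457) was 3.89, 4.001, 4.49 and 4.86 in NN 7 to NN 10 and 6.35, 6.61, 4.71 and 6.26 in UN 11 to UN 14. UN 11, UN 12 and UN 14 were above every NN liver, and UN 13 lay within the NN range. The difference was 1.67 ± 0.42 (SE, 3.18-fold, adjusted p = 0.721) with all 8 arrays and 1.58 ± 0.41 (2.98-fold, adjusted p = 0.72) without UN 14, in limma fits across all named probe sets. Cidec (probe set 17469754) was 5.75, 6.46, 7.83 and 7.38 in NN and 8.51, 9.34, 7.89 and 7.49 in UN, so that UN 13 passed the highest NN liver by little and UN 14 lay inside the NN range. Its difference was 1.46 ± 0.52 with and 1.73 ± 0.47 without UN 14. With UN 14 kept, its call was lost in 5 of 18 alternatives, the methods' ANOVA and leaving out NN 7, NN 8, UN 11 or UN 12, and without UN 14 in 0 of 16. For both genes UN 11 and UN 12 were the highest of the 8 arrays, and without UN 13 and UN 14 the differences were 2.17 and 2.07.

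Of 23 measured lipid droplet genes, Cidea and Cidec were the 2 that held and none was called lower. Plin4, a perilipin that coats droplets, was 5.22, 5.73, 5.76 and 5.31 in NN and 6.28, 6.36, 5.97 and 5.57 in UN, a difference of 0.54 ± 0.22 with and 0.70 ± 0.17 without UN 14, which is under the fold threshold. Plin2, the main droplet coat protein of hepatocytes, was 9.75, 9.89, 10.08 and 10.09 in NN and 10.12, 10.33, 9.78 and 8.14 in UN. It overlapped between groups, with differences of -0.36 and 0.12. The median of the list was -0.25 with and 0.12 without UN 14, beside -0.054 and 0.0067 for all probe sets. Of the 23 genes 15 were in the brightest bin, whose medians were -0.50 and -0.045. None of 12 genes of PPARG and lipid uptake into fatty liver was called either way. Mogat1, which makes diglyceride and is a PPARG target in fatty liver, was 4.22, 4.48, 4.67 and 4.56 in NN and 5.81, 5.51, 4.07 and 4.38 in UN, high in UN 11 and UN 12 and within or below the NN range in UN 13 and UN 14. The difference was 0.46 ± 0.38 with and 0.65 ± 0.34 without UN 14. The 7 measured adipocyte markers summed to between 5318 and 5763 linear signal units in NN, to between 5267 and 5774 in UN 11 to UN 13, and to 1001 in UN 14. Their median level in NN was 4.91 log2, and 2 of the 7 were in the brightest bin. The sum thus rested mostly on its brightest members and is not read as adipocyte content.

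**Figure D3:**
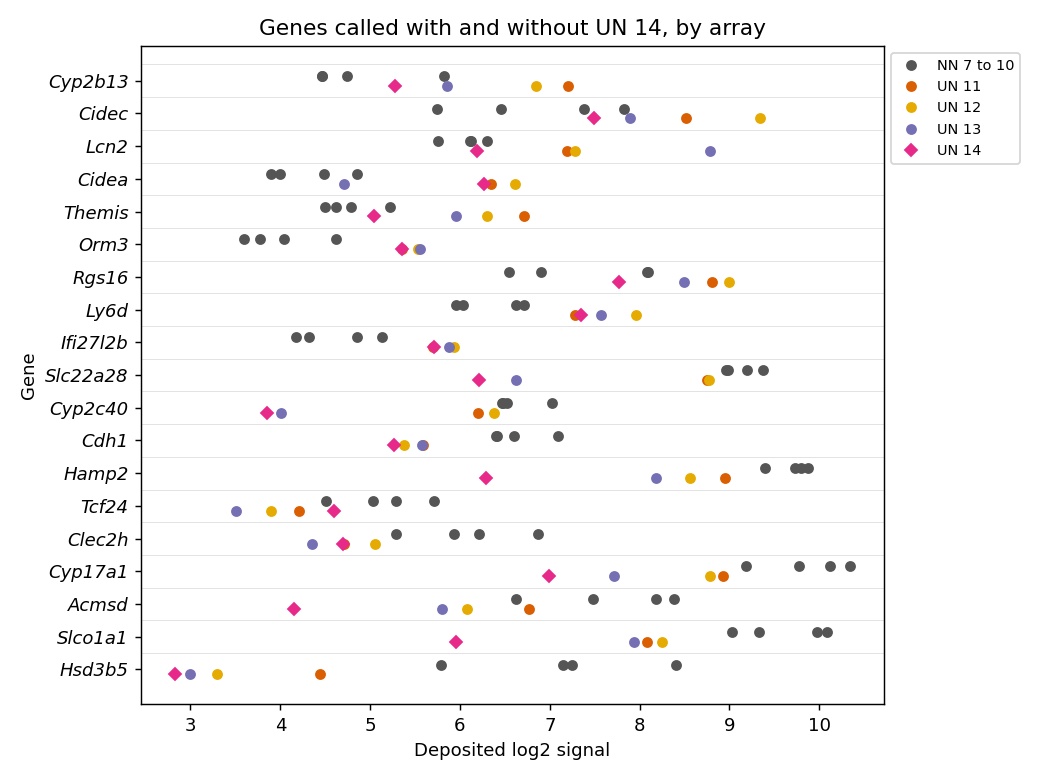
Deposited log2 signals (horizontal axis) of the 19 named genes that held, with 1 point an array and genes ordered by the difference without UN 14. Orm3, Ly6d and Ifi27l2b are higher in all 4 UN arrays than in any NN array, and UN 13 and UN 14 lie far to the left for Cyp2c40 and Slc22a28.

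Of the male-biased liver genes, Hsd3b5 and Slco1a1 were lower in UN. Hsd3b5, a 3-ketosteroid reductase made in the livers of male mice, was the gene with the largest difference of those that held. Hsd3b5 (probe set 17408315) was 8.40, 7.14, 5.79 and 7.25 in NN 7 to NN 10 and 4.44, 3.29, 2.99 and 2.83 in UN 11 to UN 14. The groups did not overlap, the lowest NN liver being above the highest UN liver. The difference was -3.76 ± 0.55 (13.5-fold lower, adjusted p = 0.721) with and -3.57 ± 0.53 (11.9-fold lower, adjusted p = 0.249) without UN 14. The values of UN 12 to UN 14 are those of the dimmest 2 bins (means up to 3.98). They may lie at background, so that the size of the fold is uncertain. A further pair of probe sets shared between Hsd3b4, Gm10681 and Hsd3b5, with the same values in every array, also held at -1.41 with and -1.37 without UN 14. Slco1a1, a male-biased transporter that takes up bile acids and other organic anions, was 9.98, 9.33, 9.02 and 10.09 in NN (probe set 17472385) and 8.08, 8.25, 7.94 and 5.96 in UN. No UN liver reached the NN range, and UN 14 lay far below the other UN livers. The difference was -2.05 ± 0.51 with and -1.51 ± 0.24 (adjusted p = 0.263) without UN 14.

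Of 15 measured male-biased genes 2 held, both lower, and 4 were called with all 8 arrays. Without UN 14, 12 of the 15 had a negative difference, where 48.4% of all probe sets were negative, and 5 of the 15 had an unadjusted p under 0.05 and were lower, where 2.65% of all probe sets were (0 of the 15 higher, where 3.4% were). With all 8 arrays 5 were likewise lower, where 1.71% of all probe sets were, and 1.29% were higher. The median of the list was -0.97 with and -0.27 without UN 14. In single arrays its median deviation from the NN mean was 0.32, -0.0044, -0.26 and 0.028 in NN 7 to NN 10. It was -0.25, -0.52, -0.24 and -2.87 in UN 11 to UN 14, so that UN 11 and UN 13 lay inside the NN range. Of the 15 genes 11 were in the brightest bin, whose medians were -0.50 with and -0.045 without UN 14. Selenbp2, a selenium-binding protein, was 8.81, 8.64, 8.35 and 8.49 in NN and 7.33, 7.80, 8.25 and 5.83 in UN, with a difference of -0.78 ± 0.20 without UN 14. All 4 UN livers were below the NN livers, UN 13 by little. Cyp4a12a, a fatty acid hydroxylase of male liver, was 8.02, 7.69, 7.71 and 7.25 in NN and 7.40, 7.14, 6.75 and 5.64 in UN, a difference of -0.57 ± 0.20 without UN 14, and UN 11 lay within the NN range. Mup20 and Elovl3, other male-biased genes, differed by -0.20 and -0.25 without UN 14 and did not pass an unadjusted p of 0.05.

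Female-biased genes went both ways. Cyp2b13, a cytochrome P450 of female mouse liver, was 4.47, 4.74, 5.82 and 4.47 in NN (probe set 17475373) and 7.21, 6.84, 5.85 and 5.28 in UN. UN 11 and UN 12 were well above the NN livers, UN 13 was level with the highest NN liver, NN 9, and UN 14 lay below it. The difference was 1.42 ± 0.47 with and 1.76 ± 0.37 without UN 14. Its near copy, Cyp2b9, was called only without UN 14, at 1.21 ± 0.44, and probe sets of such near copies can share signal. Cyp17a1, the steroid 17-hydroxylase, was 10.12, 10.34, 9.78 and 9.19 in NN (probe set 17365410) and 8.93, 8.79, 7.71 and 6.99 in UN. All 4 UN livers were lower, UN 13 and UN 14 most, and the difference was -1.75 ± 0.45 with, -1.38 ± 0.32 without UN 14 and -0.999, just short of the fold threshold, without UN 13 and UN 14. Cyp2c40, which oxidizes arachidonic acid, was 7.02, 6.53, 6.47 and 6.48 in NN and 6.20, 6.38, 4.01 and 3.86 in UN. Its low values were those of UN 13 and UN 14, and the difference went from -1.10 without UN 14 to -0.34 without both. Of 23 measured female-biased genes 1 held higher and 2 lower, and the median was -0.14 with and 0.041 without UN 14.

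None of 11 measured genes of growth hormone signalling held. Igfals, which carries IGF1 in the blood, was 7.79, 7.89, 7.74 and 7.61 in NN and 7.50, 7.49, 6.38 and 5.46 in UN, with all UN livers below all NN livers and UN 13 and UN 14 lowest. It differed by -1.05 ± 0.43 with and -0.63 ± 0.25 without UN 14. Ghr, the growth hormone receptor, differed by -0.84 ± 0.53 and -0.24 ± 0.14, Stat5b by -0.71 ± 0.37 and -0.33 ± 0.19, and Igf1 by -0.75 ± 0.56 and -0.10 ± 0.13. None of these 3 passed an unadjusted p of 0.05 in either fit.

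The acute-phase genes Orm3 and Lcn2 were higher in UN. Orm3, an orosomucoid (a plasma protein that binds drugs and lipids), was 3.59, 4.04, 3.78 and 4.62 in NN (probe set 17414738) and 5.36, 5.53, 5.55 and 5.35 in UN. The 4 UN livers lay close to each other and above every NN liver, UN 14 included. The difference was 1.44 ± 0.22 (2.71-fold, adjusted p = 0.721) with and 1.47 ± 0.21 (2.78-fold, adjusted p = 0.249) without UN 14. Lcn2, lipocalin 2, which binds bacterial iron carriers, was 5.76, 6.12, 6.30 and 6.11 in NN (probe set 17383892) and 7.19, 7.28, 8.78 and 6.19 in UN. UN 13 was far the highest, UN 11 and UN 12 were above every NN liver, and UN 14 was within the NN range. The difference was 1.29 ± 0.47 with and 1.68 ± 0.33 without UN 14, and 1.17 without UN 13 and UN 14. Leaving out UN 13 alone gave 0.82 and ended the call, which with UN 14 kept was also lost without NN 7 and by the methods' ANOVA. Orm2 and Saa2, which encodes a serum amyloid A, were called only without UN 14. Orm2 was 6.68, 7.42, 8.08 and 7.09 in NN and 8.75, 8.69, 10.03 and 6.90 in UN, again highest in UN 13 and lowest among UN livers in UN 14. Its difference was 1.84 ± 0.37 without UN 14, and that of Saa2 was 1.40 ± 0.34. The orosomucoid genes are near copies of each other, so that their probe sets may share signal.

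Of 25 measured acute-phase genes 2 held, both higher, and 4 were called without UN 14, all higher. The list as a whole had a median of -0.51 with and 0.10 without UN 14, and 13 of its 25 members had a positive difference without it. Hamp, hepcidin, the iron-regulating hormone of the liver, was 12.13, 12.01, 12.11 and 11.97 in NN and 11.93, 11.73, 9.96 and 8.44 in UN, not called, with UN 13 and UN 14 low. Hamp2, its mouse paralogue, held lower. Hamp2 (probe set 17489357) was 9.88, 9.80, 9.73 and 9.39 in NN and 8.95, 8.56, 8.18 and 6.29 in UN, without overlap. It differed by -1.71 ± 0.51 with, -1.14 ± 0.19 (adjusted p = 0.304) without UN 14 and -0.95 without UN 13 and UN 14.

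Macrophage markers stood high in UN 13, the array with the highest Lcn2 and Orm2. The 14 measured markers summed to between 1530 and 2090 linear signal units in NN, to 2078, 2060 and 5366 in UN 11, UN 12 and UN 13, and to 808 in UN 14. Marco, a scavenger receptor of Kupffer cells, was 6.10, 6.16, 5.90 and 5.16 in NN and 5.79, 5.79, 9.93 and 4.88 in UN, high in UN 13 only. None of the 14 was called. With all 8 arrays 0 of the 14 had an unadjusted p under 0.05 in limma, where 1.29% of all probe sets did and were higher. Without UN 14, 6 had, all higher, where 3.4% of all probe sets did. The median difference of the list was 0.24 with and 0.66 without UN 14, and 0.20 without UN 13 and UN 14. Array signals carry a background, so that no marker can be read as absent. In UN 11 and UN 12 the macrophage sums, 2078 and 2060, lay just under the highest NN sum, 2090 in NN 7. They were above those of NN 8, NN 9 and NN 10, which were 1786, 1530 and 1594. Lcn2 and Orm2 were above every NN liver in both. The part of macrophages in the levels of Lcn2, Orm2 and Saa2 was not tested, and in bulk liver more cells of a type and more RNA per cell cannot be told apart.

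Themis, Ly6d and Ifi27l2b, which were higher in UN, are known from immune cells or belong to families described there. Themis, which T cells need as they mature in the thymus, was 4.49, 4.79, 5.22 and 4.62 in NN (probe set 17232394) and 6.71, 6.31, 5.96 and 5.05 in UN. UN 11 to UN 13 lay above the NN livers and UN 14 inside their range, with differences of 1.22 ± 0.34 with and 1.54 ± 0.21 (adjusted p = 0.249) without UN 14. With UN 14 kept and UN 11 left out, the difference of Themis was 0.99, short of the fold threshold. Ly6d, a membrane-anchored protein of the Ly6 family, was 5.95, 6.03, 6.63 and 6.71 in NN (probe set 17318020) and 7.28, 7.96, 7.57 and 7.35 in UN. All 4 UN livers were higher, and the difference was 1.21 ± 0.23 with and 1.28 ± 0.23 (adjusted p = 0.345) without UN 14. The 12 measured lymphocyte markers summed to between 343 and 403 linear signal units in NN, 344 and 345 in UN 11 and UN 12, 501 in UN 13 and 752 in UN 14. Their median level in NN was 4.17, within the middle bin of all probe sets (means of 3.98 to 4.98). The median deviation of these markers from the NN mean was 0.44 in UN 13 and 0.30 in UN 14. That bin deviated by 0.062 and -0.034. The part of lymphocytes in the levels of Themis and Ly6d was not tested. Ifi27l2b, named for its likeness to an interferon-induced gene, was 4.32, 4.85, 5.13 and 4.18 in NN (probe set 17283556) and 5.70, 5.93, 5.88 and 5.71 in UN, again with no overlap. Its difference was 1.18 ± 0.22 with and 1.22 ± 0.22 without UN 14. It was the 1 of 15 measured interferon-stimulated genes that was called, and the median of these was -0.17 with and 0.058 without UN 14. Oasl2, an antiviral oligoadenylate synthetase-like gene, was 5.19, 4.89, 4.52 and 5.08 in NN and 5.07, 5.14, 6.89 and 4.82 in UN, high in UN 13 only.

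Across all probe sets 1.49% had all 4 UN arrays above all 4 NN arrays and 2.34% had them all below. Among the 19 named genes that held, this was so for 3 of the higher ones (Orm3, Ly6d and Ifi27l2b) and 8 of the lower ones, every one but Acmsd and Tcf24, and it is given as a description because these genes were chosen by their difference.

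The other genes that held have no such group. Rgs16, a regulator of G protein signalling that in liver follows feeding time, was 6.91, 6.54, 8.10 and 8.08 in NN (probe set 17218321) and 8.80, 8.99, 8.50 and 7.77 in UN. The NN livers were split, UN 14 lay among them and UN 11 to UN 13 lay above them, with a difference of 1.11 ± 0.42 with and 1.36 ± 0.36 without UN 14. With UN 14 kept its call was lost in 7 of 18 alternatives, down to a difference of 0.82 without NN 8, among them the methods' ANOVA, 1 fit of all arrays and leaving out NN 7, UN 11, UN 12 or UN 13. Without UN 14 it was lost in 1 of 16, the fit of all arrays. Acmsd, the decarboxylase that turns tryptophan breakdown away from NAD synthesis, was 8.38, 8.18, 7.49 and 6.63 in NN (probe set 17216779) and 6.77, 6.08, 5.80 and 4.15 in UN. UN 11 was above the lowest NN liver, NN 10, and the others were below it, with a difference of -1.97 ± 0.58 with and -1.45 ± 0.39 without UN 14. Cdh1, E-cadherin, an adhesion protein of epithelial cells, was 7.09, 6.60, 6.42 and 6.40 in NN (probe set 17505148) and 5.59, 5.37, 5.58 and 5.27 in UN. The spread within each group was small and the groups did not overlap, the difference being -1.17 ± 0.18 (adjusted p = 0.721) with and -1.11 ± 0.17 (adjusted p = 0.263) without UN 14. It fell short of the fold threshold at -0.97 with quantile normalization again (all 8 arrays) and at -0.96 without NN 7 and UN 14.

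Clec2h, a C-type lectin-related gene, was 6.87, 6.21, 5.93 and 5.28 in NN (probe set 17463443) and 4.71, 5.06, 4.36 and 4.69 in UN, without overlap. It differed by -1.37 in both fits, since UN 14 was near the mean of the other UN livers. Tcf24, a helix-loop-helix transcription factor, was 5.29, 5.03, 5.71 and 4.51 in NN and 4.21, 3.89, 3.50 and 4.60 in UN, a difference of -1.08 ± 0.30 with and -1.27 ± 0.26 without UN 14, which lay just above the lowest NN liver. With UN 14 kept, its call was lost without NN 9 or without UN 13. Slc22a28, an organic anion transporter, was 9.37, 9.20, 8.98 and 8.96 in NN and 8.75, 8.77, 6.63 and 6.21 in UN. Its low values were in UN 13 and UN 14, like those of Cyp2c40, and the difference went from -1.08 ± 0.44 without UN 14 to -0.37 without both. Probe sets for Gm4963, Snord13 and the Snord68 and Rpl13 locus also held, with their lowest values in UN 13 and UN 14, and differed by -0.58, -0.44 and -0.46 without both. Of the 25 probe sets that held, 17 were still called without UN 13 and UN 14, and of the 19 named genes 15, all 9 of the higher and 6 of the 10 lower.

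Lists of abundant liver genes had lower medians with UN 14 than without it. The 20 measured genes of bile acid synthesis and transport all had a negative difference with all 8 arrays and 13 did without UN 14, with medians of -0.72 and -0.048. Slco1a1 was the 1 that held. Cyp7a1, the rate-limiting enzyme of bile acid synthesis, was 10.31, 10.82, 9.86 and 9.85 in NN and 9.86, 9.54, 9.97 and 6.57 in UN, a difference of -1.22 ± 0.71 with and -0.42 ± 0.23 without UN 14. Akr1d1, the steroid 5-beta-reductase of that pathway, differed by -1.12 ± 0.53 and -0.50 ± 0.14, and Abcb11, the bile salt export pump, by -1.10 ± 0.57 and -0.45 ± 0.19. Complement and coagulation genes were negative in 21 of 21 with and 18 of 21 without UN 14, with medians of -0.73 and -0.078, and none held. Of 17 genes of cholesterol synthesis and uptake none was called in either fit, and the medians were -0.60 and -0.16. The conjugating enzymes had medians of -0.62 and -0.053 over 24 genes, with none called. Gstm3, a glutathione transferase, was 7.84, 7.78, 8.24 and 7.68 in NN and 8.68, 8.96, 8.73 and 7.46 in UN, higher in UN 11 to UN 13 than in any NN liver and lowest in UN 14. The 27 cytochrome P450 genes of drug metabolism had medians of -0.57 and -0.053, and Cyp2b13 was the 1 that held.

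Genes of endoplasmic reticulum stress were not called higher in either fit. Sdf2l1, a chaperone partner of the endoplasmic reticulum, was 7.71, 7.47, 7.71 and 7.27 in NN and 7.13, 6.89, 6.998 and 4.97 in UN, called lower with all 8 arrays only, and its difference without UN 14 was -0.53 ± 0.14 with no overlap. Ddit3, which encodes CHOP, was 5.55, 5.56, 5.53 and 5.76 in NN and 5.85, 5.83, 5.99 and 6.23 in UN, all UN livers above all NN livers. Its difference was 0.38 ± 0.14 (adjusted p = 0.721) with and 0.29 ± 0.11 (adjusted p = 0.822) without UN 14, far under a fold of 2. Atf3, another stress transcription factor, differed by 0.49 ± 0.20 and 0.39 ± 0.18. Hspa5, the chaperone BiP, was 9.47, 8.999, 9.14 and 9.18 in NN and 9.12, 8.88, 9.28 and 6.48 in UN, which overlapped in UN 11 and UN 13. The 18 measured genes had medians of -0.72 and -0.14.

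**Figure D4:**
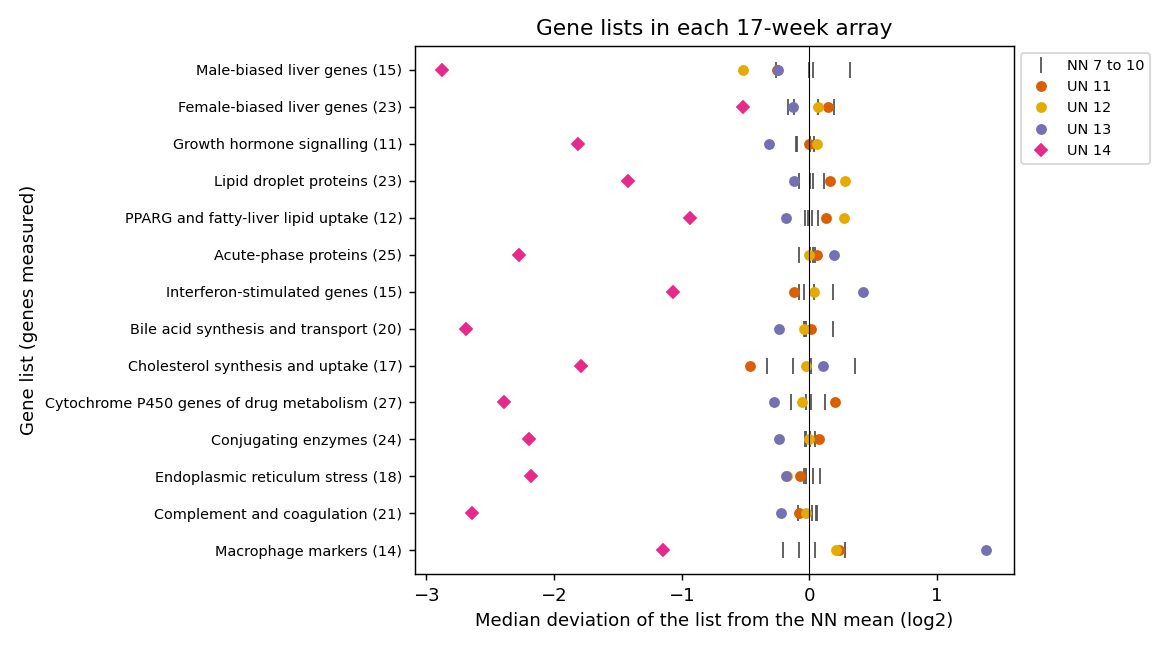
Median deviation of each gene list from the NN mean (log2, horizontal axis) in each 17-week array, with the number of measured genes beside the list. UN 14 is lowest in all 14 lists, at -2.87 for male-biased and -0.52 for female-biased genes, and UN 13 is highest for macrophage markers at 1.39.

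The study listed 9 genes of interest, chosen in part on these UN livers and on a contrast with these NN livers. Their behaviour here is therefore not independent of the choice. With all 8 arrays 8 were called higher and 1, Cyp17a1, lower. Orm3, Ifi27l2b, Ly6d, Cidea, Cyp17a1, Themis, Cidec and Rgs16 held, and Sprr1a was called with all 8 arrays only.

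The same 19 genes were read at 9 weeks, before HFD (3 NN and 3 UN livers), and at 22 weeks, after 13 weeks of HFD with vehicle in the last 5 (4 NN-Veh and 4 UN-Veh livers), in other animals of the same strain and sex. They had been chosen by their 17-week difference, so that their change between ages is a description. The fit at 22 weeks also held the livers treated with tauroursodeoxycholic acid, which entered its spread and p-values but not the difference. At 9 weeks 12 of 19 had the sign of 17 weeks, and no probe set passed an adjusted p of 0.05 (0 of 25341, 0%, and 914 at an unadjusted p under 0.05 in limma). Of the 19 genes 4 had an unadjusted p under 0.05 at 9 weeks, Cyp17a1 at -0.92, Themis at 0.35 and Ifi27l2b at 0.37 with the sign of 17 weeks, and Cidec at -0.44 with the opposite sign. At 22 weeks 17 of 19 had the same sign, all 9 of the higher and 8 of the 10 lower, beside 55.1% of all probe sets that were higher in UN-Veh. At 22 weeks 6 passed an adjusted p of 0.05, Cidea, Cidec, Orm3, Themis and Ly6d higher and Acmsd lower, where 0.312% and 0.107% of all probe sets passed. Cidea was 4.13, 4.24, 4.65 and 4.95 in NN-Veh and 8.01, 7.94, 8.04 and 7.17 in UN-Veh at 22 weeks, wide apart, and its difference was 0.026, 1.58 and 3.29 at 9, 17 (without UN 14) and 22 weeks. Orm3 differed by 0.31, 1.47 and 1.69. Hsd3b5 was between 8.86 and 9.88 in all 6 livers at 9 weeks. At 22 weeks it was 7.44, 3.17, 5.22 and 3.58 in NN-Veh and 3.23, 4.11, 3.95 and 3.56 in UN-Veh, overlapping, so that its difference was 0.18, -3.57 and -1.14. Slco1a1 differed by 0.043, -1.51 and -1.62, and Acmsd by -0.067, -1.45 and -1.91. Hamp2 and Cyp2c40, lower at 17 weeks, differed by 0.093 and 0.02 at 22 weeks.

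**Figure D5:**
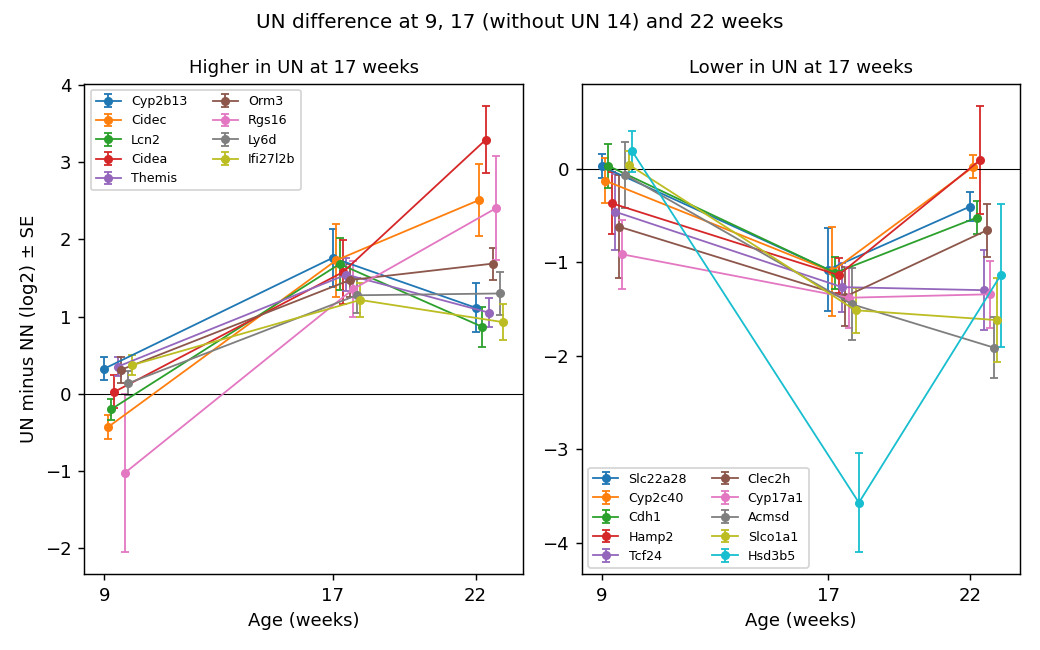
UN minus NN (log2, vertical axis, error bars SE) of the 19 named genes that held against age in weeks, from 3 against 3 livers at 9 weeks, 4 NN against 3 UN at 17 weeks (without UN 14) and 4 against 4 at 22 weeks, with points of a panel shifted sideways. The SEs at 22 weeks come from a fit that also held livers treated with tauroursodeoxycholic acid. Cidea reaches 3.29 at 22 weeks, and Hsd3b5 is at -3.57 at 17 weeks and -1.14 at 22 weeks.

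Whether the difference itself differed between ages was tested over all probe sets by an interaction term. Between 17 and 9 weeks no probe set passed an adjusted p of 0.05 in limma (0%), with 622 at an unadjusted p under 0.05 with all arrays and 1215 without UN 14. Between 17 and 22 weeks none passed with all arrays (0%, 934 at an unadjusted p under 0.05), and 1 passed without UN 14 (0.00395%, 1455 unadjusted), Adprhl2, an enzyme that removes ADP-ribose from proteins. Adprhl2 was 4.78, 4.70, 4.52 and 4.60 in NN and 5.31, 5.38, 5.42 and 4.96 in UN at 17 weeks, all UN livers above all NN livers, a difference of 0.72 without UN 14 against -0.26 at 22 weeks (adjusted p = 0.0335 for the difference between them). Without UN 14, no probe set passed when NN 8, NN 9, NN 10, UN 11, UN 12 or UN 13 was also left out. The same was so without NN-Veh 16, NN-Veh 17 or any UN-Veh array. Nor did any pass with a variance trend and robust estimation, or when probe sets without a gene name were added. Age, length of diet, vehicle gavage and cohort change together between these groups and cannot be told apart.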

How the data were processed

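Liver RNA was hybridised to Affymetrix mouse gene arrays, 1 array an animal, and the authors deposited log2 signals that were made with Affymetrix Expression Console, for 41345 probe sets on 30 arrays (unmatched columns: 0). The method of summarization and normalization is not given in the sources used here, and the array quantiles are close to each other except in UN 14. The build behind the array annotation is not given in the sources used here. Groups and numbers of arrays came from the sample titles. Of the probe sets, 25341 have a gene name in the platform annotation, 23521 of them 1 symbol and 1820 several, and only these were tested. The log2 values were used as deposited. UN was compared with NN by limma 3.58.1 (lmFit and eBayes) in R 4.3.3 on the 17-week arrays alone, once with all 8 and once without UN 14, and interaction contrasts compared ages. The limma p replaced the ANOVA of the study's methods, which is given as an alternative. The fits were tested on simulated data.

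Named were all genes held in both fits (probe sets of 1 symbol, without predicted genes, small RNAs, olfactory and vomeronasal receptors and pseudogenes), up to 4 members of each of 14 lists by p, the study's 9 genes of interest and up to 5 genes a direction called in 1 fit only. Where a gene had more than 1 probe set, the brightest was used. Alb, Apoa1, Elovl3, Hspa5, Igf1, Mup20, Plin2, Adprhl2, Apoa4, Npas2 and Irs2 were named after their values had been seen. The members and lists were chosen with earlier results of these data known. Alternatives were other normalizations and filters, other fits, array weights and leaving out each array in turn. Leaving out UN 13 and UN 14 together was added after seeing the data. The number of arrays limits the precision. Plots came from matplotlib 3.10.9 under Python 3.11.15.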

Additional observations from a re-analysis of the deposited data

Results flagged for a closer look

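In 23 of the 166 groups of 4 arrays that were examined, 1 array stood far from the others by Dixon's test, beside about 1 in 20 by chance. Of these 23, 20 were values of UN 14. The arrays are not independent between genes, so the 23 are not 23 separate findings. The median correlation of UN 14 with the other arrays was 0.837, where UN 11 to UN 13 had 0.958 to 0.982.

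UN 14 was far below the other UN livers for the anion transporter Slco1a1 at 5.96 (the others 7.94 to 8.25), for Cyp2c54 at 5.75 (the others 8.41 to 8.72), for Cyp2c70 at 7.24 (the others 9.85 to 10.08) and for the bile acid enzyme Cyp7a1 at 6.57 (the others 9.54 to 9.97). The same was so for the complement and coagulation genes C8b at 6.20 (the others 9.25 to 9.40), C2 at 5.25 (the others 7.004 to 7.12), C6 at 5.64 (the others 7.95 to 8.30) and F11 at 6.07 (the others 8.49 to 8.60). It held also for Fabp4 at 5.27 (the others 6.64 to 6.83), Stat2 at 5.35 (the others 7.11 to 7.29), Insig1 at 8.38 (the others 10.31 to 10.63), Sult1a1 at 7.12 (the others 9.64 to 9.77) and Sdf2l1 at 4.97 (the others 6.89 to 7.13). As medians over lists, UN 14 deviated from the NN mean by -2.87 for male-biased genes, -2.27 for acute-phase proteins, -2.69 for bile acid genes, -2.20 for conjugating enzymes, -2.18 for endoplasmic reticulum stress and -2.64 for complement and coagulation.

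UN 13 was far above the other UN livers for the antiviral gene Oasl2, at 6.89 (the others 4.82 to 5.14). In NN, NN 7 was high for Cyp2c40 at 7.02 and NN 10 for Ddit3 at 5.76. The difference between UN and NN for Adprhl2 was larger at 17 than at 22 weeks by 0.98 on the log2 scale without UN 14 (adjusted p = 0.0335, interaction in limma), in 3 of 3 UN livers above all NN livers at 17 weeks. Adprhl2 no longer passed when most of the further arrays were left out.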

How the results depend on the processing

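The numbers of probe sets called were 67 with all 8 arrays, 31 without UN 14 and 25 that held. With all 8 arrays they were 28 by the methods' ANOVA, 179 in 1 fit of all arrays (1 at an adjusted p under 0.05), 31 with array weights (18 adjusted, 17 higher and 14 lower), 318 over all probe sets of the table, and 35 without UN 13 and UN 14 (1 adjusted). Leaving out 1 array at a time gave 31 to 298, where the count was 298 without UN 11, 262 without UN 12, 41 without NN 7, 40 without NN 8 and 31 without UN 14. Without UN 14 they were 172 over all probe sets and 31 to 107 leaving out a further array (103 without UN 11, 107 without UN 12), and those at an adjusted p were 5 with all arrays in 1 fit, 2 with array weights, 1 without UN 13 and UN 14, and 0 to 1 leaving out an array. Those that held were 16 by the ANOVA, 129 over all probe sets, and 19 to 55 leaving out an array (54 without UN 11, 55 without UN 12). Splits of higher against lower calls with all 8 arrays were 29.9% higher as reported and 44.4% with quantile normalization again. Interactions at an adjusted p between 17 and 9 weeks without UN 14 were 0 to 1 leaving out an array. Those between 17 and 22 weeks with all arrays were 1 with array weights and 0 to 1 leaving out an array, and without UN 14 they were 0 with a variance trend and robust estimation, 0 over all probe sets, and 0 to 2 leaving out an array. Marco turned negative without UN 13, at -0.35 (all other arrays) and -0.045 (without UN 14 too), over a range from -0.35 to 1.34 and from -0.045 to 2.03 leaving out each array. Of the 19 named genes that held, 9 were called under every one of 18 alternatives with all 8 arrays and 16 without UN 14: Cidea, Orm3, Cyp2b13, Ly6d and Ifi27l2b higher, and Hsd3b5, Slco1a1, Acmsd and Clec2h lower. Over the 646 values of these 19 genes, 583 kept direction and call, 63 lost the call and 0 turned. With all 8 arrays calls were lost in 8 of 18 alternatives for Cyp2c40, 7 for Rgs16, 6 for Slc22a28, 5 for Cidec, 3 for Lcn2, 2 for Tcf24 and 1 each for Themis, Cyp17a1, Hamp2 and Cdh1. Without UN 14 they were lost in 11 of 16 for Cyp2c40, 10 for Slc22a28, 3 for Hamp2, 2 for Cyp17a1 and 1 each for Rgs16 and Cdh1. The causes were not tested, apart from the larger number of probe sets tested. No paired analysis was possible because the groups compared share no replicate numbers. No detection calls were used, so dim probe sets may lie at background, and the number of arrays limits what could be called.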

Other observations

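Of the other lists, those of lipid and energy metabolism had no member called in either fit. None of the measured members, namely 18 genes of fatty acid synthesis, 15 of fatty acid oxidation and ketogenesis, 23 of the mitochondrial respiratory chain, 18 of the urea cycle and amino acid catabolism, 17 of the circadian clock, 17 of glucose and insulin response and 11 apolipoproteins, passed. Their medians without UN 14 were 0.012, 0.0014, -0.073, -0.10, -0.16, -0.12 and 0.029 in that order, beside 0.0067 for all probe sets. The brightest bin of all probe sets had a median of -0.045 without UN 14. No measured member of the lists of acyl-CoA thioesterases and Cyp4a, matrix, housekeeping, ribosomal and cell division genes, or of the marker lists of endothelium, bile duct, pancreas, red blood cells and muscle, was called in either fit. These counts cover list members alone, and related genes outside them were called with all 8 arrays, such as Cyp4a12b and Kifc1.

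Apoa4, an apolipoprotein of triglyceride-rich particles that rises in fatty mouse liver, was 9.94, 10.56, 10.84 and 10.99 in NN 7 to NN 10 and 11.41, 11.68, 11.25 and 9.51 in UN 11 to UN 14. UN 11 to UN 13 were above every NN liver and UN 14 below them all, so that the difference was 0.38 ± 0.47 (SE) with and 0.86 ± 0.23 without UN 14. Npas2, a partner of BMAL1 in the clock, was 3.93, 3.65, 3.93 and 3.59 in NN 7 to NN 10 and 3.43, 3.43, 3.23 and 3.05 in UN 11 to UN 14, with every UN liver below every NN liver and a difference of -0.49 ± 0.15 (SE) with and -0.41 ± 0.13 without UN 14. Irs2, which relays the insulin signal, was 5.62, 5.35, 5.81 and 5.99 in NN 7 to NN 10 and 4.85, 5.19, 5.53 and 5.15 in UN 11 to UN 14. It differed by -0.51 ± 0.19 (SE) with and -0.50 ± 0.19 without UN 14, with UN 13 inside the NN range, under a fold of 2.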
